A study of Mus musculus with 16 samples.

Results

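Among the 24421 gene symbols counted, 10 genes that code for proteins of the secondary and tertiary granules of neutrophils were followed across both subsets of myeloid-derived suppressor cells (MDSCs). They are Ltf, Camp, Ngp, Lcn2, Chil3, Mmp8, Cd177 and Olfm4, which are tied mainly to secondary granules, Mmp9, which is the usual marker of tertiary granules, and Lyz2, whose product is held in all granule classes. The genes were chosen by symbol, from what is known of granule proteins but with earlier results of these data known, and all 10 had a row in every library. Monocytic M-MDSCs (CD11b-high Ly6C+ Ly6G-) and granulocytic G-MDSCs (CD11b-high Ly6C- Ly6G+) had been sorted by flow cytometry from the spleens of C57BL/6 mice that carried subcutaneous B16.F10 tumors, a transplantable mouse melanoma. The 4 groups were WT M-MDSC, Nlrp3-/- M-MDSC, WT G-MDSC and Nlrp3-/- G-MDSC, with 4 libraries each, and both subsets of each of the 8 mice were sequenced. In the Nlrp3-/- strain the gene is disrupted in the germline by an EGFP cassette, so that each cell type of the host lacks it, while the injected tumor cells are not of that genotype. By the defaults stated in the methods, mice were sex- and age-matched, between 6 and 12 weeks old, and were analysed 15 days after tumor inoculation unless another day was named, and no other age or day is given for the sequenced animals. The comparison of genotypes asks how loss of the inflammasome sensor NLRP3 is reflected in splenic MDSCs of tumor-bearing mice. By the methods, C57BL/6J mice were purchased and the Nlrp3-/- line came from another laboratory, and whether WT mice were littermates is not stated. The paper also reports smaller tumors and a shifted balance of splenic M-MDSCs and G-MDSCs in Nlrp3-/- mice. Effects of genotype, colony and tumor size therefore cannot be told apart here.

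Neutrophils store antimicrobial proteins and proteases in granules that are filled in sequence as the cell matures. Primary granules, with myeloperoxidase and elastase, are made at the promyelocyte stage, secondary granules, with lactoferrin, cathelicidin and lipocalin 2, at the myelocyte and metamyelocyte stages, and tertiary granules, with gelatinase, later still. Most of the transcripts are made while the granule forms and decline afterwards, and C/EBP-epsilon is the transcription factor best known to be needed for the secondary set. Chil3 and Lyz2 are also made by monocytes and macrophages.

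Libraries held 2295967 to 6079866 counts, and levels are given as CPM, the count relative to the library total after TMM scaling over all 16 libraries. Because the kit reads the 3′ end of each transcript, levels were compared between samples and not between genes. The sum over the 10 genes took 0.315% to 1.57% of the counts of an M-MDSC library and 0.998% to 1.90% of a G-MDSC library. Most of the M-MDSC sum came from Lyz2 and Chil3 in the libraries at both ends of that range. They took 0.144% and 0.104% in WT replicate 1 and 1.12% and 0.33% in Nlrp3-/- replicate 1. Counts of Nlrp3 itself ran from 219 to 632 in WT M-MDSCs and from 4 to 11 in those of Nlrp3-/- mice. In G-MDSCs the ranges were 744 to 1365 and 21 to 59, so no library went against its genotype label. Of the sorting markers, Ly6c2 was lower in G-MDSCs (log2 fold change of −2.14 in WT and −2.45 in Nlrp3-/- mice). Ly6g was not among the counted gene symbols, so it could not be checked. Itgam, for CD11b, was higher in G-MDSCs (1.51 in WT and 1.25 in Nlrp3-/- mice). Itgax, for CD11c, was higher as well (3.34 and 2.70). Between genotypes Itgam alone of the 4 tested markers was called. It was lower in Nlrp3-/- mice, by −0.71 in M-MDSCs (edgeR adjusted p = 0.0329) and −0.97 in G-MDSCs (edgeR adjusted p = 0.000632). The 8 monocyte markers summed to 5160 to 7236 CPM in M-MDSCs and 430.1 to 1005 CPM in G-MDSCs. Most of the G-MDSC sum was Csf1r, with means of 494.5 CPM in WT and 815.7 CPM in Nlrp3-/- mice. Each of the others had a G-MDSC mean between 2.21 and 45.4 CPM. Of the 4 melanoma markers, no library held more than 1.45 CPM in sum. In bulk RNA, fewer cells of a type and less RNA per cell cannot be told apart.

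One library stood apart before any test. The M-MDSCs of WT replicate 2 had 197 CPM of Ltf, where the other WT replicates had 41.6, 21.9 and 35.6. They had 884 CPM of Camp against 86.1, 138 and 142, and 1055 CPM of Ngp against 185, 155 and 207. Lcn2 stood at 227 CPM against 43.6, 37.9 and 36.6. The same library also had the highest WT values of the primary granule genes Mpo (102 CPM, others 23.3 to 29.4) and Elane (48.6 CPM, others 11.9 to 18.7) and of the proliferation marker Mki67 (153 CPM, others 48.8 to 68.4). Its Mmp9 (2.25 CPM) and Cd177 (37.3 CPM) lay within the range of the other WT replicates. The G-MDSC library of that mouse had the highest WT level of Ltf, Ngp, Chil3, Mmp8, Cd177 and Cebpe, the last of these at 82.4 CPM against 15.5 to 40.7. The subset differences and the M-MDSC genotype differences of Ltf, Camp, Ngp and Lcn2 are given with and without WT M-MDSC replicate 2. The same holds for the M-MDSC genotype calls of Mmp9 and Cd177 and for the M-MDSC correlations. Tests of single genes outside the followed granule set, Mki67 and Elane among them, are given only with that library.

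Camp, Ngp and Ltf lie together on chromosome 9 within 1.2 Mb of mm10 (GENCODE), Camp at chr9:109847379-109849617 on the minus strand, Ngp at chr9:110419747-110423012 and Ltf at chr9:111019271-111042767 on the plus strand, with gaps of 570 and 596 kb. Mmp8 is on the same chromosome, farther off, at chr9:7558456-7568485. RefSeq promoter windows (GRCm38.p6, 250 bases before the annotated start) were found for 9 of the 10 genes. Mmp9 had no window and was not searched. The letters TTGCNNAA, a core recognised by C/EBP factors, were searched on both strands and occurred in 4 of these 9 windows, those of Ltf, Ngp, Lcn2 and Mmp8, and in 9.56% of 32851 windows of all genes. The ETS core GAGGAA, bound by PU.1, was in 5 of the 9 (Ltf, Lcn2, Mmp8, Cd177 and Olfm4) and in 23.3% of all windows. The AP-1 letters TGANTCA and a 10-letter NF-kB core were in 0 of the 9, and in 6.75% and 3.86% of all windows. In these 9 windows no C/EBP match overlapped an ETS match. A match says only that the letters are present. Printed here are the upstream stretches of 3 genes with a C/EBP match that were higher in G-MDSCs, and that of Chil3, which had no match and was higher in M-MDSCs. A match did not follow the direction in every gene, since Camp and Cd177 had none and were higher in G-MDSCs in both genotypes. TTGCNNAA matches on either strand are in capitals, and each stretch ends at the RefSeq start or at the GENCODE start where that comes first.
Ltf (chr9:111019042-111019270, plus strand): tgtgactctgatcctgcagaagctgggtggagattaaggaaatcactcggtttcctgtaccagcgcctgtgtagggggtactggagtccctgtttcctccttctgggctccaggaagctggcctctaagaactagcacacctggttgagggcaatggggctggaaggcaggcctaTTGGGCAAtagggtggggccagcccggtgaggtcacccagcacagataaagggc
Ngp (chr9:110419558-110419746, plus strand): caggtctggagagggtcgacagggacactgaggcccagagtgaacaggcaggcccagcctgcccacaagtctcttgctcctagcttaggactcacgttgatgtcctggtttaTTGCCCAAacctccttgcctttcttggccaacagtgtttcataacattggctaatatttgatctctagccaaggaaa
Mmp8 (chr9:7558179-7558428, plus strand): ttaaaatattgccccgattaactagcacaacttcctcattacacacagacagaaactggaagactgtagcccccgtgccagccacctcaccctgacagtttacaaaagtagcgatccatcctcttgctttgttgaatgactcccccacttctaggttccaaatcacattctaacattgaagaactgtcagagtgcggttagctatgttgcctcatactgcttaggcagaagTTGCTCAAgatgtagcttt
Chil3 (chr3:106167565-106167814, minus strand): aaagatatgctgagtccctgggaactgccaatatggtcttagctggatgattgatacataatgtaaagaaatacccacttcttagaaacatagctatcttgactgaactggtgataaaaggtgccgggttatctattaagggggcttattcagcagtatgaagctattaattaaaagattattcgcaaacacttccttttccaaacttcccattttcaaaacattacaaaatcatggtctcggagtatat
The Ltf match began 75 bases before the RefSeq start, the Ngp match printed here 138 bases and the Mmp8 match 19 bases before it.

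The largest differences ran between the subsets. In G-MDSCs against M-MDSCs, 9 of the 10 genes passed the filter on low counts, and all 9 differed in both genotypes, 7 higher in G-MDSCs (Ltf, Camp, Ngp, Lcn2, Mmp8, Mmp9 and Cd177) and 2 lower (Chil3 and Lyz2). A gene was called at a Benjamini-Hochberg adjusted p under 0.05 and a fold change above 1.5 in edgeR's quasi-likelihood test. By that rule 53.3% of 9739 tested genes were called in WT (26.3% higher, 27.1% lower) and 51.0% of 10071 in Nlrp3-/- mice (23.7% higher, 27.4% lower), so a difference between the subsets was common among all genes. The values of all libraries did not overlap between the subsets for 8 of the 9 genes in WT (51.9% of all tested genes) and for 9 of 9 in Nlrp3-/- mice (50.2%). The median log2 fold change of the 9 genes was 2.79 in WT and 3.77 in Nlrp3-/- mice, beside −0.05 and −0.12 over all tested genes. The mouse enters both subsets, and with the mouse as a block the same 9 genes were called in each genotype.

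**Figure D1:**
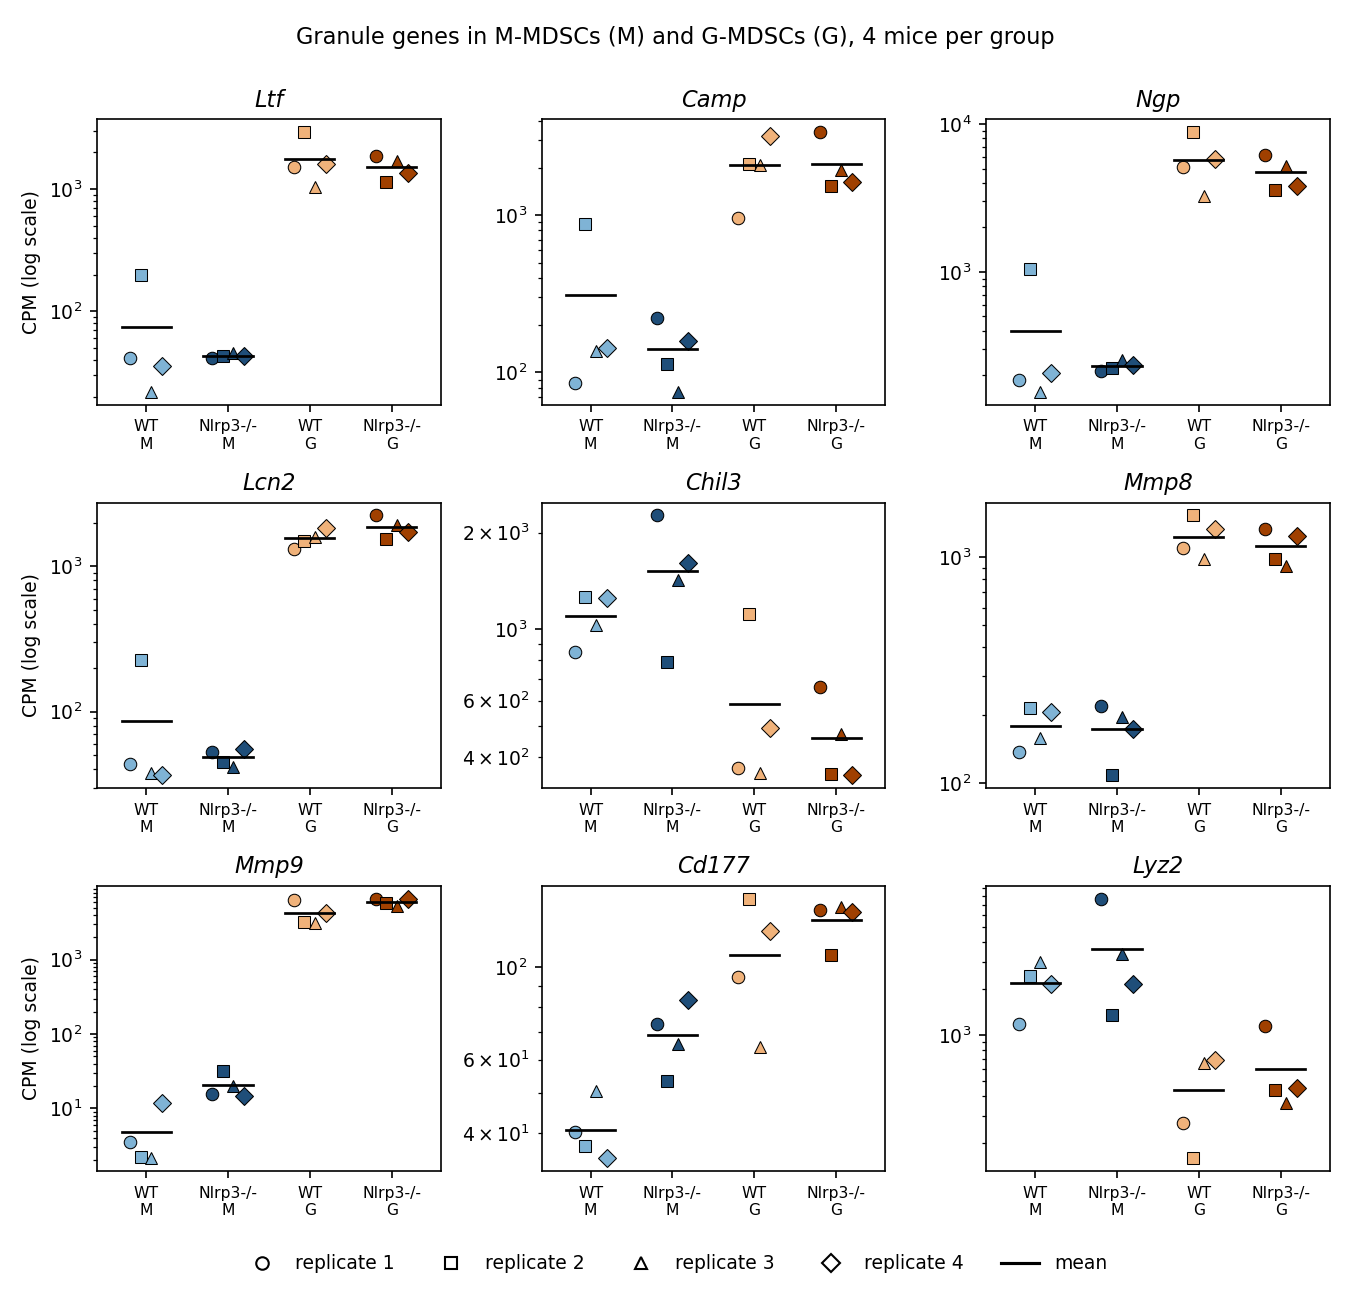
CPM (log axis) of 9 granule genes in each of the 16 libraries, with 1 panel per gene, a column of points per group, a marker shape per replicate and a line at the group mean. Ltf, Camp, Ngp, Lcn2, Mmp8, Mmp9 and Cd177 sit higher in G-MDSCs and Lyz2 sits lower, and the square of WT M-MDSC replicate 2 lies far above its group for Ltf (197 CPM), Camp (884 CPM), Ngp (1055 CPM) and Lcn2 (227 CPM).

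Ltf codes for lactoferrin, the iron-binding protein that defines secondary granules. Its levels in WT G-MDSCs were 1518, 2929, 1037 and 1618 CPM in replicates 1 to 4. In Nlrp3-/- G-MDSCs they were 1879, 1145, 1708 and 1355 CPM. Every G-MDSC library thus lay above every M-MDSC library, where the WT values named above and the Nlrp3-/- values of 41.5, 42.7, 45.9 and 42.8 CPM apply. The log2 fold change of G-MDSCs over M-MDSCs was 4.57 in WT (SE 0.66, edgeR adjusted p = 0.000103) and 5.02 in Nlrp3-/- mice (SE 0.20, edgeR adjusted p = 2.57e-10). Without WT M-MDSC replicate 2 the WT value was 5.70. Within single mice, G-MDSCs had 14.9 to 47.4 times the Ltf CPM of M-MDSCs in WT and 26.8 to 45.3 times in Nlrp3-/- mice, and 14.9 was the value of WT replicate 2.

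Ngp codes for neutrophilic granule protein, a cystatin-like protein of secondary granules. WT G-MDSCs had 5090, 8805, 3248 and 5847 CPM of Ngp, and Nlrp3-/- G-MDSCs had 6222, 3586, 5214 and 3833 CPM. The M-MDSCs of Nlrp3-/- mice had 213, 225, 253 and 235 CPM, a narrow spread far under the lowest G-MDSC library. Between subsets the log2 fold change was 3.84 in WT (SE 0.63, edgeR adjusted p = 0.000257) and 4.24 in Nlrp3-/- mice (SE 0.21, edgeR adjusted p = 1.54e-09). The WT value was 4.93 without M-MDSC replicate 2.

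Camp codes for the precursor of the cathelicidin peptide CRAMP. Its WT G-MDSC levels were 953, 2111, 2082 and 3171 CPM and those of Nlrp3-/- G-MDSCs 3368, 1526, 1928 and 1621 CPM. In Nlrp3-/- M-MDSCs Camp had 220.5, 113, 75.3 and 158 CPM. The WT subsets came close together, since M-MDSC replicate 2 (884 CPM) lay just under G-MDSC replicate 1 (953 CPM), and within the mouse of replicate 2 the levels of the subsets differed 2.39-fold, against 11.1-fold to 22.3-fold in the other WT mice. Its log2 fold change was 2.73 in WT (SE 0.67, edgeR adjusted p = 0.00435), 4.04 without that library, and 3.77 in Nlrp3-/- mice (SE 0.36, edgeR adjusted p = 7.42e-07).

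Lcn2 codes for lipocalin 2, which binds bacterial siderophores and lies on the minus strand at chr2:32384633-32388252. WT G-MDSCs had 1318, 1505, 1603 and 1849 CPM and Nlrp3-/- G-MDSCs 2241, 1546, 1914 and 1716 CPM. Nlrp3-/- M-MDSCs had 53.1, 45.3, 41.7 and 54.9 CPM. The subsets differed by a log2 fold change of 4.17 in WT (SE 0.58, edgeR adjusted p = 7.16e-05) and of 5.13 in Nlrp3-/- mice (SE 0.20, edgeR adjusted p = 2.20e-10), and the WT value was 5.25 without M-MDSC replicate 2.

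Mmp8, the neutrophil collagenase, showed little spread. M-MDSCs had 137, 216, 159 and 206 CPM in WT and 219, 109, 196 and 175 CPM in Nlrp3-/- mice. G-MDSCs had 1100, 1535, 980.2 and 1334 CPM in WT and 1332, 987, 916 and 1240 CPM in Nlrp3-/- mice. The groups of a subset overlapped and the subsets did not. On the log2 scale G-MDSCs exceeded M-MDSCs by 2.79 in WT (SE 0.22, edgeR adjusted p = 7.50e-07) and 2.56 in Nlrp3-/- mice (SE 0.23, edgeR adjusted p = 4.16e-07). WT M-MDSC replicate 2 was not set apart for this gene, and leaving it out gave 2.83.

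Mmp9 (chr2:164940780-164955850), which codes for gelatinase B, had the widest difference of the 9 genes. WT M-MDSCs had 3.53, 2.25, 2.14 and 11.6 CPM, from 19, 16, 12 and 34 counts. WT G-MDSCs had 6433, 3212, 3096 and 4220 CPM, and Nlrp3-/- G-MDSCs 6605, 5706, 5220 and 6618 CPM. Nlrp3-/- M-MDSCs had 15.4, 32.0, 20.2 and 14.6 CPM, from 97 to 188 counts. Every G-MDSC library, at 3096 CPM or more, lay far above every M-MDSC library, at 32.0 CPM or less. This was a log2 fold change of 9.93 in WT (SE 0.59, edgeR adjusted p = 9.25e-08) and 8.10 in Nlrp3-/- mice (SE 0.29, edgeR adjusted p = 8.64e-11). Without WT M-MDSC replicate 4, the highest WT library, the WT value was 10.6. The mean of M-MDSCs was 0.115% of that of G-MDSCs in WT and 0.341% in Nlrp3-/- mice.

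Cd177, a surface glycoprotein that neutrophils also carry on granule membranes (chr7:24743983-24760311, minus strand), had the smallest difference among the 7 genes that were higher in G-MDSCs. WT M-MDSCs had 40.3, 37.3, 50.4 and 34.9 CPM, and WT G-MDSCs 94.7, 146, 64.4 and 122 CPM. In Nlrp3-/- mice M-MDSCs had 73.2, 53.3, 65.3 and 83.4 CPM and G-MDSCs 137, 107, 139 and 135 CPM. For Cd177 the log2 fold change was 1.39 in WT (SE 0.24, edgeR adjusted p = 0.00041) and 0.79 in Nlrp3-/- mice (SE 0.18, edgeR adjusted p = 0.00212). With library size as the only scaling the values became 0.63 (edgeR adjusted p = 0.0368) and 0.07 (edgeR adjusted p = 0.737), so the call was lost in Nlrp3-/- mice. That scaling moved the median of all tested genes to −0.79 in WT and −0.83 in Nlrp3-/- mice and the calls to 1166 higher and 5057 lower (from 2557 and 2636) in WT and to 1150 higher and 5026 lower (from 2383 and 2758) in Nlrp3-/- mice. The other 8 genes kept their direction and their call under it in both genotypes.

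Chil3 and Lyz2 ran the other way. Chil3 (chr3:106147554-106167564, minus strand) codes for a chitinase-like lectin, and WT M-MDSCs had 849, 1261, 1031 and 1255 CPM of it. WT G-MDSCs had 370.0, 1117, 357 and 493 CPM, where replicate 2 again was the highest and reached into the M-MDSC range. Nlrp3-/- M-MDSCs had 2261, 789.5, 1421 and 1611 CPM and Nlrp3-/- G-MDSCs 662, 354, 473 and 352 CPM, without overlap. The log2 fold change of G-MDSCs over M-MDSCs was −0.91 in WT (SE 0.34, edgeR adjusted p = 0.0353) and −1.85 in Nlrp3-/- mice (SE 0.30, edgeR adjusted p = 0.000135). The WT call was lost in 6 of 19 alternatives, 5 of which left out 1 library (WT M-MDSC replicate 2 or 4, or WT G-MDSC replicate 1, 3 or 4) and gave adjusted p of 0.0569 to 0.0929. Over all 19 alternatives the edgeR or DESeq2 adjusted p was 0.000203 to 0.0929. Chil3 has a near-identical neighbour, Chil4, 33.9 kb away, so its counts may be shared with that gene.

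Lyz2 (chr10:117277331-117282321, minus strand) codes for lysozyme, which monocytes and macrophages make as well. M-MDSCs had 1172, 2437, 2983 and 2154 CPM in WT and 7693, 1341, 3342 and 2139 CPM in Nlrp3-/- mice. G-MDSCs had 270.3, 159, 656 and 684 CPM in WT and 1140, 437, 360.2 and 453 CPM in Nlrp3-/- mice. Both Nlrp3-/- libraries of replicate 1 were the highest of their groups. For Lyz2 the log2 fold change of G-MDSCs over M-MDSCs was −2.31 in WT (SE 0.44, edgeR adjusted p = 0.000792) and −2.73 in Nlrp3-/- mice (SE 0.50, edgeR adjusted p = 0.000403). Without Nlrp3-/- M-MDSC replicate 1 the second value was −2.02 and the call remained. Its paralog Lyz1 lies 5.48 kb away and is near-identical, so the split of reads between them is uncertain.

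Olfm4, for olfactomedin 4, a secondary granule protein of part of the neutrophils (chr14:79984081-80023139), had too few counts to be tested. WT G-MDSCs had 14, 11, 4 and 4 counts and Nlrp3-/- G-MDSCs 2, 4, 0 and 2. The M-MDSC libraries had 0 or 1 count each, under the 3 counts taken as the limit of detection. When all genes were fitted without a filter, Olfm4 was higher in WT G-MDSCs than in WT M-MDSCs (edgeR adjusted p = 0.000274) and passed in no other comparison (edgeR adjusted p of 0.115 to 1).

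**Figure D2:**
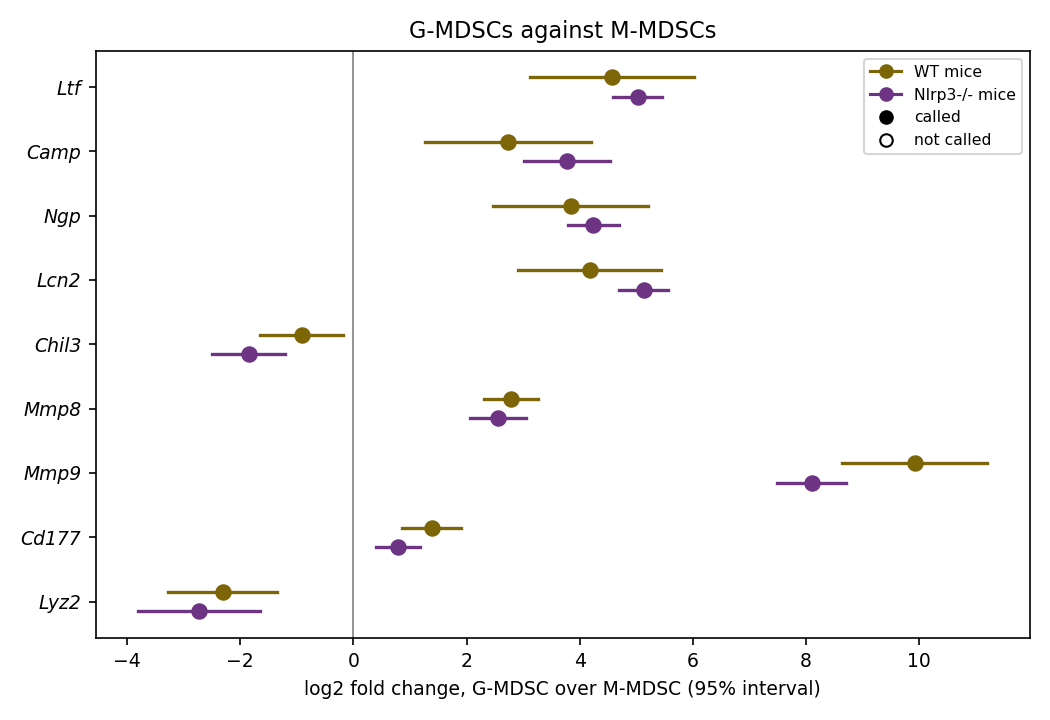
Log2 fold change of G-MDSCs over M-MDSCs with its 95% interval for 9 granule genes, fitted apart in WT and in Nlrp3-/- mice (8 libraries each), filled points being called genes. Values run from −2.31 (Lyz2) to 9.93 (Mmp9) in WT and from −2.73 (Lyz2) to 8.10 (Mmp9) in Nlrp3-/- mice.

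Between genotypes, M-MDSCs differed in 2 of the 9 tested genes, Mmp9 and Cd177, both higher in Nlrp3-/- mice. Over all 9986 tested genes 10.6% were called, 3.51% higher and 7.10% lower. With library size as the only scaling the calls over all genes were 684 higher and 569 lower, from 351 and 709, with a median log2 fold change of 0.17 in place of 0.07, and Mmp9 and Cd177 were called again. The Mmp9 values of Nlrp3-/- M-MDSCs given above had a mean of 20.6 ± 8.01 CPM (SD, n = 4) beside 4.88 ± 4.54 CPM (SD, n = 4) in WT. All 4 Nlrp3-/- values lay above the highest WT value of 11.6 CPM in replicate 4, which was itself far from the other 3. The log2 fold change was 2.22 (SE 0.49, 95% interval 1.14 to 3.29, edgeR adjusted p = 0.0169). For Cd177 the means were 68.8 ± 12.7 CPM (SD, n = 4) and 40.7 ± 6.81 CPM (SD, n = 4), and the 4 Nlrp3-/- values, from 53.3 CPM up, lay above the 4 WT values, up to 50.4 CPM. The log2 fold change of Cd177 was 0.78 (SE 0.19, 95% interval 0.37 to 1.19, edgeR adjusted p = 0.0233). For both genes, and for none of the other 7, the genotypes did not overlap, as was the case with Nlrp3-/- higher for 7.59% of all tested genes. DESeq2 called the same 2 genes.

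Neither call held in every alternative, that of Mmp9 in 16 of 19 and that of Cd177 in 13 of 19. Without WT M-MDSC replicate 2 no gene of the 9 was called, the log2 fold changes being 1.96 for Mmp9 (edgeR adjusted p = 0.0508) and 0.75 for Cd177 (edgeR adjusted p = 0.0746), while the number of all called genes fell to 514. Mmp9 was called without any other single library, with its highest value, 2.98, when WT M-MDSC replicate 4 was left out. Cd177 was also not called without WT M-MDSC replicate 4 (edgeR adjusted p = 0.08) or Nlrp3-/- M-MDSC replicate 4 (edgeR adjusted p = 0.0885), or after correction for GC content and length (0.56, edgeR adjusted p = 0.0821). Over the 19 alternatives the log2 fold change of Mmp9 was 1.88 to 2.98 and that of Cd177 0.54 to 0.90, each positive throughout, with adjusted p of 0.00017 to 0.093 and 0.00457 to 0.188.

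The 4 secondary granule genes Ltf, Camp, Ngp and Lcn2 had lower mean CPM in Nlrp3-/- M-MDSCs, and the sign of that difference turned when WT replicate 2 was left out. Their log2 fold changes with all libraries were −0.76 for Ltf (95% interval −1.94 to 0.41), −1.10 for Camp (−2.5 to 0.29), −0.77 for Ngp (−1.90 to 0.35) and −0.81 for Lcn2 (−1.93 to 0.32), and none was called (edgeR adjusted p of 0.267 to 0.36). Without that library they became 0.43, 0.28, 0.38 and 0.35 (edgeR adjusted p of 0.196 to 0.672). The SD of Ltf was 82.2 CPM around a mean of 73.9 CPM in WT and 1.87 CPM around 43.2 CPM in Nlrp3-/- M-MDSCs. Mmp8 stood at −0.01 (95% interval −0.51 to 0.50, edgeR adjusted p = 0.987). Chil3 (0.51, 95% interval −0.11 to 1.12, edgeR adjusted p = 0.25) and Lyz2 (0.78, −0.24 to 1.81, edgeR adjusted p = 0.284) had higher means in Nlrp3-/- M-MDSCs but overlapped with WT. Leaving out Nlrp3-/- replicate 1, with 2261 CPM of Chil3 and 7693 CPM of Lyz2, brought these to 0.19 and 0.04. The intervals leave room for a decrease of more than 1.5-fold for Ltf, Camp, Ngp and Lcn2 and for an increase of that size for Chil3 and Lyz2, whereas that of Mmp8 stays within 1.5-fold in both directions.

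**Figure D3:**
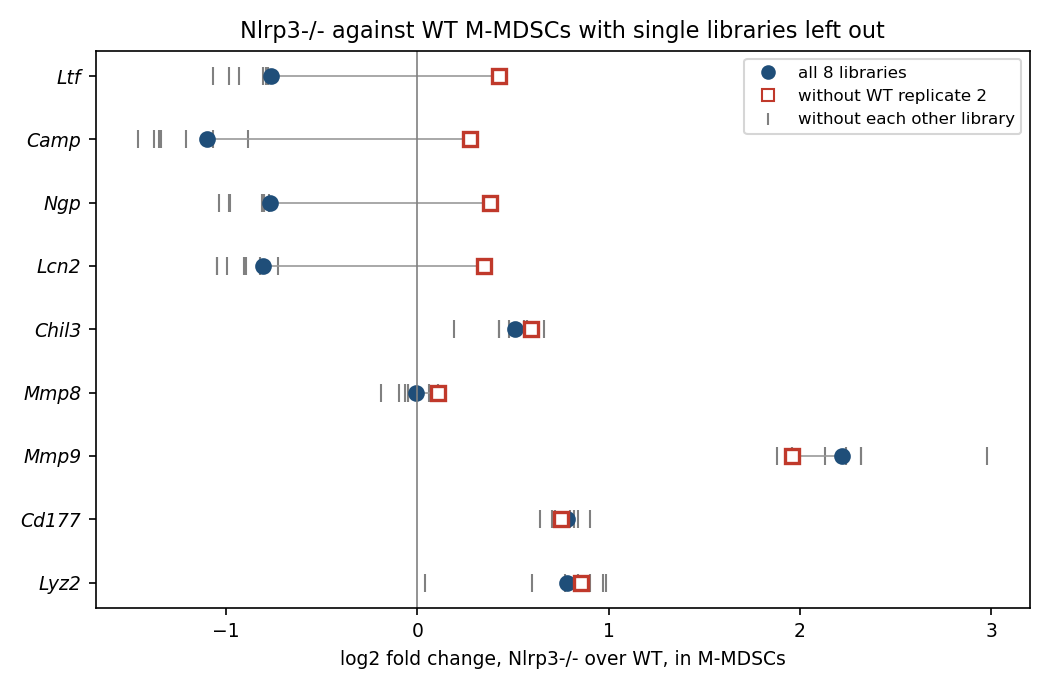
Log2 fold change of Nlrp3-/- over WT in M-MDSCs for 9 granule genes with all 8 libraries (filled circles), without WT M-MDSC replicate 2 (open squares) and without each of the other libraries (ticks). Ltf, Camp, Ngp and Lcn2 pass from between −1.10 and −0.76 to between 0.28 and 0.43 when that library is left out, while Mmp9 stays between 1.88 and 2.98.

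In G-MDSCs 0 of the 9 tested genes were called between genotypes, and 0 had an unadjusted p under 0.05 in edgeR or were called by DESeq2. Among all 9273 tested genes 16.4% were called, 4.70% higher and 11.7% lower in Nlrp3-/- mice, and the genotypes did not overlap for 24.4% of them, beside 0 of the 9 genes. Library size as the only scaling gave 795 higher and 853 lower calls, from 436 and 1086, with a median over all genes of 0.16 in place of 0.03. Mmp9 came nearest, with 6037 ± 692 CPM (SD, n = 4) in Nlrp3-/- and 4240 ± 1546 CPM (SD, n = 4) in WT G-MDSCs. WT replicate 1, at 6433 CPM, lay inside the Nlrp3-/- range of 5220 to 6618 CPM. The log2 fold change was 0.43 (SE 0.22, 95% interval −0.04 to 0.89, edgeR adjusted p = 0.192), and without WT G-MDSC replicate 1 it was 0.68 (edgeR adjusted p = 0.0185), which passed. Ltf stood at −0.32 (95% interval −0.90 to 0.27), Ngp at −0.38 (−0.96 to 0.21), Camp at −0.07 (−0.76 to 0.61), Lcn2 at 0.15 (−0.21 to 0.52), Mmp8 at −0.24 (−0.64 to 0.16) and Cd177 at 0.19 (−0.29 to 0.67). Chil3 (−0.44, −1.16 to 0.27) and Lyz2 (0.35, −0.57 to 1.26) had the widest intervals. For Lcn2 the interval stays within a 1.5-fold change in both directions, and for the other genes it does not.

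**Figure D4:**
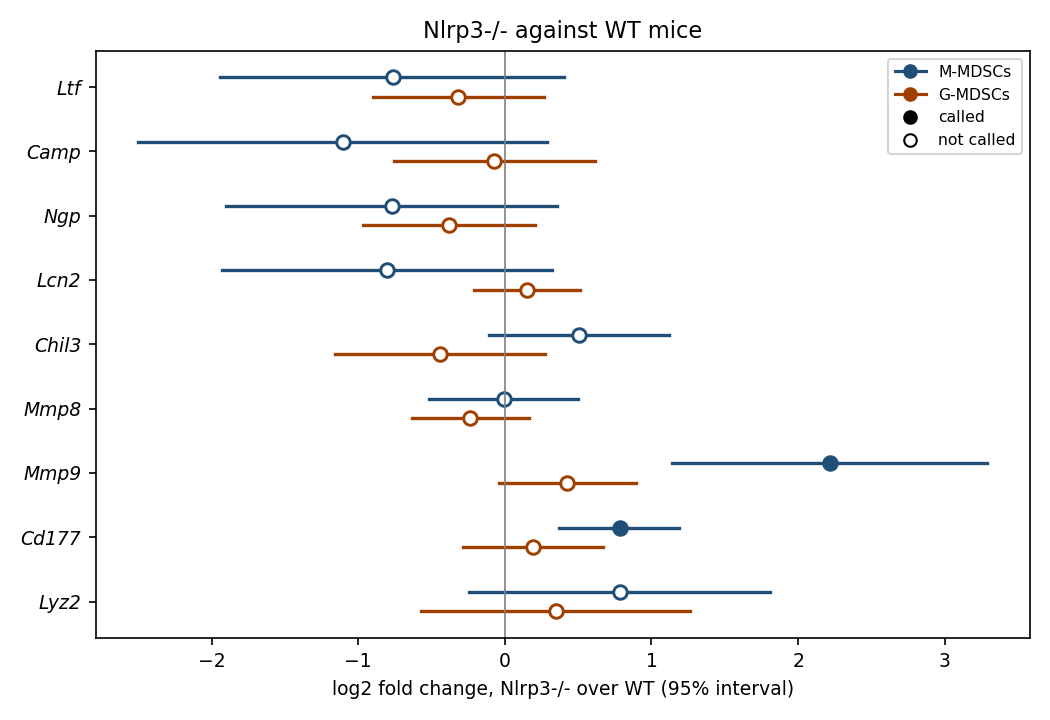
Log2 fold change of Nlrp3-/- over WT with its 95% interval for 9 granule genes in M-MDSCs and in G-MDSCs (8 libraries each), filled points being called genes. Only the M-MDSC intervals of Mmp9 (1.14 to 3.29) and Cd177 (0.37 to 1.19) lie clear of 0.

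Whether the effect of genotype was unequal in M-MDSCs and G-MDSCs was asked with an interaction term over all 16 libraries. By edgeR, 0 of the 9 genes were called, beside 3 of 10696 tested genes (0.028%), and DESeq2 called 0 of the 9 as well. Mmp9 alone had an unadjusted p under 0.05, with an effect in G-MDSCs that was lower than in M-MDSCs by 1.73 on the log2 scale (interaction −1.73, 95% interval −2.85 to −0.61, edgeR adjusted p = 0.908). Leaving out WT M-MDSC replicate 4 gave −2.45 (edgeR adjusted p = 0.0632), and with the mouse as a block the value was −1.74 (edgeR adjusted p = 0.221). Over 25 alternatives it ran from −2.45 to −1.44, with adjusted p of 0.0632 to 1. A called difference in M-MDSCs and none in G-MDSCs does therefore not show that the subsets differ.

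The balance between genes within a library does not depend on scaling. The ratio of Mmp9 to Ltf counts in WT M-MDSCs was 0.0848, 0.0114, 0.0976 and 0.327, the lowest being replicate 2. In Nlrp3-/- M-MDSCs it was 0.373, 0.749, 0.441 and 0.341, each above the highest WT value. The margin was small, the lowest Nlrp3-/- ratio resting on 114 and 334 counts and the highest WT ratio on 34 and 104. How often other pairs of genes separate the genotypes was not tested. In G-MDSCs the ratio was 4.24, 1.10, 2.99 and 2.61 in WT and 3.52, 4.98, 3.06 and 4.88 in Nlrp3-/- mice, and these overlapped. Ltf and Ngp, by contrast, kept a ratio of 0.142 to 0.225 in all 8 M-MDSC libraries, WT replicate 2 (0.186) included, and of 0.277 to 0.354 in all 8 G-MDSC libraries. The ratio of Camp to Ngp was less even, at 0.298 to 1.04 in M-MDSCs and 0.187 to 0.641 in G-MDSCs. Counts of different genes depend on how well each 3′ end is captured, so only the differences of a ratio between libraries were read.

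**Figure D5:**
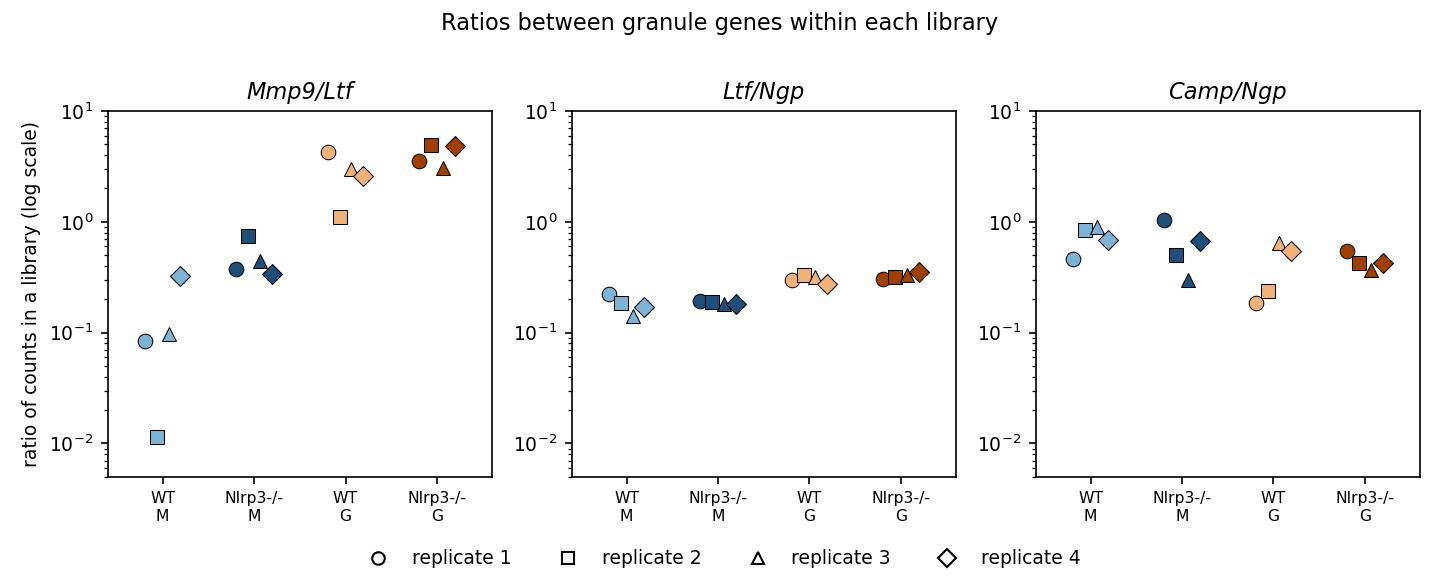
Ratio of the counts of pairs of granule genes within each library (log axis), by group, with a marker shape per replicate. Mmp9 to Ltf spans 0.0114 in WT M-MDSC replicate 2 to 4.98 in Nlrp3-/- G-MDSCs, whereas Ltf to Ngp stays within 0.142 to 0.354 over all 16 libraries.

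Across the 8 libraries of a subset, log2 CPM of Ltf and Ngp moved together, with Pearson's r of 0.979 in M-MDSCs and 0.974 in G-MDSCs. In M-MDSCs Lcn2 (r = 0.950) and Camp (r = 0.796) followed Ltf, and Mmp9 did not (r = −0.239). In G-MDSCs it was Chil3 that followed Ltf (r = 0.935), then Mmp8 (r = 0.720) and Cd177 (r = 0.715), while Lcn2 (r = 0.128) and Camp (r = 0.288) did not and were nearer to each other (r = 0.815). These values are descriptions over 8 libraries that include both genotypes, and in M-MDSCs most of them rest on WT replicate 2. Over the other 7 M-MDSC libraries r with Ltf was 0.863 for Ngp, 0.549 for Lcn2, −0.224 for Camp and 0.735 for Mmp9, so that the last 2 changed sign. Among the other tested genes, S100a9 (r = 0.986), S100a8 (r = 0.972), Wfdc21 (r = 0.963), Mcm10 (r = 0.925) and Calcrl (r = 0.920) were most like Ltf in M-MDSCs. S100a8 and S100a9, the calprotectin subunits, had 3715 and 2611 CPM in WT replicate 2 against 564.5 to 1207 and 363 to 622 CPM in the other 7 M-MDSC libraries. Over those 7 libraries r with Ltf was 0.921 for S100a9, 0.812 for S100a8, 0.706 for Wfdc21, 0.706 for Mcm10 and 0.808 for Calcrl. In G-MDSCs genes most like Ltf included Tssc4 (r = 0.955), Stom (r = 0.938), Cebpe (r = 0.935) and Zswim8 (r = 0.928). The G-MDSC library of WT replicate 2 was the highest of the 8 for Ltf, Ngp, Chil3, Mmp8, Cd177 and Cebpe. It had 2929 CPM of Ltf, where the others had 1037 to 1879 CPM. The G-MDSC correlations were not recomputed without that library, so how far they rest on it was not tested.

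The genes most like Mmp9 in M-MDSCs were Ccr3 (r = 0.965), Retnlg (r = 0.962), Taf6l (r = 0.957), Alox15 (r = 0.955) and Camta2 (r = 0.954), also over 8 libraries, and without WT replicate 2 these values were 0.945 to 0.992. Ccr3, the eotaxin receptor known from eosinophils, had 3.53, 4.35, 1.43 and 11.6 CPM in WT and 19.2, 47.3, 20.4 and 14.0 CPM in Nlrp3-/- M-MDSCs, and it was called higher (log2 fold change of 2.39, SE 0.54, edgeR adjusted p = 0.0175). Retnlg, a resistin-like protein of mature neutrophils, had 22.5, 25.7, 9.44 and 67.7 CPM in WT and 134, 315, 113 and 90.4 CPM in Nlrp3-/- M-MDSCs. As for Mmp9, WT replicate 4 was the highest WT library and Nlrp3-/- replicate 2 the highest of all. Ccr3 and Retnlg were picked here for their r with Mmp9 over these same libraries of both genotypes. A like order of libraries and a like direction between genotypes followed from that choice and are no separate support for the Mmp9 result. In G-MDSCs the closest genes to Mmp9 were Tmem38a (r = 0.983), Vasp, Itgb7, Tef and Irf1 (r = 0.973).

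Lists of marker genes of other cells were read beside Mmp9 and Cd177. Of 13 genes of late neutrophils, 12 were tested between genotypes in M-MDSCs, and 7 of these had a positive log2 fold change. Only 1 was called, Retnlg (log2 fold change of 2.44, SE 0.53, edgeR adjusted p = 0.0151), beside 10.6% of all tested genes. The list summed to 1696 to 1980 CPM in WT and 2030 to 2180 CPM in Nlrp3-/- M-MDSCs. Msrb1 (mean of 659 CPM in WT and 905 CPM in Nlrp3-/- mice) and Retnlg (31.3 and 163 CPM) rose most in that sum. The means of Il1b (266 and 192 CPM), Clec4e (141 and 108 CPM), Trem1 (54.0 and 31.9 CPM) and Ccrl2 (70.9 and 57.8 CPM) fell. Cxcr2, the chemokine receptor that defines mature neutrophils, had 0.927, 3.51, 0.534 and 1.37 CPM in WT and 1.05, 0.851, 0.209 and 1.28 CPM in Nlrp3-/- M-MDSCs, so it was near the detection limit in both. Of 6 macrophage markers 4 were higher in Nlrp3-/- M-MDSCs and 4 in Nlrp3-/- G-MDSCs, beside 3.51% and 4.70% of all tested genes. Their sums were 126 to 147 CPM in WT and 231 to 339 CPM in Nlrp3-/- M-MDSCs. None of the 6 was at 0 in any library. Of 5 eosinophil markers 1 was tested in M-MDSCs and was not called, and the sums of 2.85 to 25.1 CPM in WT and 7.08 to 21.6 CPM in Nlrp3-/- M-MDSCs overlapped. The tested gene, Prg2, which codes for the eosinophil major basic protein, gave 18.2 of the 25.1 CPM in WT replicate 2 and 16.5 of the 21.6 CPM in Nlrp3-/- replicate 2. Siglecf, a surface lectin of eosinophils, did not pass the filter on low counts and stood at 0.557, 0.702, 0.178 and 1.37 CPM in WT and 2.32, 3.41, 0.834 and 2.18 CPM in Nlrp3-/- M-MDSCs. Nlrp3-/- replicate 3 lay under WT replicate 4, and the other 3 Nlrp3-/- values lay above all WT values. Ccr3, described above, was not on that list and was higher in Nlrp3-/- M-MDSCs, but it had been picked for its likeness to Mmp9. The part of these cells in the Mmp9 and Cd177 results was not tested.

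Other genes of the granule program, taken from lists of 22 further secondary and tertiary granule genes, 9 primary granule genes, 11 genes of granule release and 10 transcriptional regulators, set the 10 genes in context. Over all tested genes 26.3% were called higher and 27.1% lower in G-MDSCs in WT, and 23.7% and 27.4% in Nlrp3-/- mice. Of the 22, 21 were tested between subsets and 16 were higher and 3 lower in G-MDSCs in each genotype. Adam8, a membrane metalloprotease, reached a log2 fold change of 5.20 in WT (edgeR adjusted p = 1.70e-08), and Lrg1, a glycoprotein stored in granules, 7.61 in Nlrp3-/- mice (edgeR adjusted p = 8.64e-11). Primary granule genes ran against them, with 6 of 9 lower and 2 higher in G-MDSCs in each genotype. Elane, neutrophil elastase, had 24.0 ± 16.6 CPM (SD, n = 4) in WT M-MDSCs and 0.564 ± 0.521 CPM (SD, n = 4) in WT G-MDSCs, a log2 fold change of −5.37 (edgeR adjusted p = 3.03e-05), while Cd63, a granule membrane tetraspanin, was higher by 3.84 (edgeR adjusted p = 2.27e-05). Of the release genes, 10 tested in WT and 11 in Nlrp3-/- mice, 7 were higher and 2 lower in G-MDSCs in each genotype, with Rab27a at 2.58 and Stx3 at −3.65 in WT (edgeR adjusted p of 1.51e-07 and 1.95e-07).

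Among the regulators, Cebpe, for C/EBP-epsilon, had 42.2 ± 28.7 CPM (SD, n = 4) in WT G-MDSCs against 4.57 ± 1.28 CPM (SD, n = 4) in WT M-MDSCs, and 23.8 ± 9.19 against 3.82 ± 0.367 CPM (SD, n = 4 each) in Nlrp3-/- mice. It was higher in G-MDSCs by a log2 fold change of 3.17 and 2.52 (edgeR adjusted p of 0.000106 and 2.14e-05). Cebpd rose with it, by 2.96 and 3.05, and Irf8, a factor of the monocyte lineage, fell by 2.40 and 2.22 on the log2 scale. In all, 5 of 10 regulators were higher and 2 lower in WT G-MDSCs, and 5 were higher and 3 lower in Nlrp3-/- G-MDSCs. In either direction, 53.3% of all tested genes were called in WT and 51.0% in Nlrp3-/- mice.

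Between genotypes, in M-MDSCs (10.6% of all tested genes called) 3 of 17 further granule genes (Plaur higher at 0.71, Itgam lower at −0.71, Ceacam1 lower at −0.71), 0 of 9 primary granule genes and 1 of 9 regulators passed by edgeR. In G-MDSCs (16.4% of all tested genes called) 2 of 21 (Itgam −0.97, Ceacam1 −1.25), 0 of 4 and 1 of 10 passed. Itgam also codes for CD11b, a marker used in the sort. No primary granule gene had an unadjusted p under 0.05 or was called by DESeq2 in either subset. The 1 regulator was Runx1 in both, lower by log2 fold changes of −0.70 (edgeR adjusted p = 0.0292) and −0.89 (edgeR adjusted p = 0.00821). Of the granule release genes 3 of 10 were called in M-MDSCs and 3 of 11 in G-MDSCs, and whether that share differs from that of other genes was not tested. Rab27a, the small GTPase that docks granules at the membrane, had 32.7, 42.0, 29.2 and 38.7 CPM in WT and 17.7, 14.3, 15.4 and 15.9 CPM in Nlrp3-/- M-MDSCs. In G-MDSCs it had 193, 222, 224 and 214 CPM in WT and 77.1, 74.7, 73.7 and 59.7 CPM in Nlrp3-/- mice, again without overlap. Its log2 fold change was −1.14 in M-MDSCs (SE 0.19, edgeR adjusted p = 0.00482) and −1.67 in G-MDSCs (SE 0.15, edgeR adjusted p = 2.36e-05). Stxbp2, a partner of syntaxins in membrane fusion, was higher in both (0.69 and 0.63, edgeR adjusted p of 0.044 and 0.0399), Vamp7 was lower in M-MDSCs (−1.07, edgeR adjusted p = 0.0211) and Snap23, a SNARE of exocytosis, in G-MDSCs (−0.96, edgeR adjusted p = 0.00069).

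Late neutrophil genes, 13 of 13, were higher in G-MDSCs in both genotypes, from a log2 fold change of 1.48 upward in WT. Over all tested genes 26.3% were called higher in G-MDSCs in WT and 23.7% in Nlrp3-/- mice. Between the genotypes of G-MDSCs 4 of 13 were called, beside 16.4% of all tested genes. Cxcr2 was lower (1154 ± 300 against 2601 ± 601 CPM, SD, n = 4 each, log2 fold change of −1.26, edgeR adjusted p = 0.00152) and 3 were higher, Msrb1 (0.78) and Clec4e (0.68) among them. Of all 13 genes, 12 had a positive log2 fold change, with a median of 0.34 beside 0.03 over all tested genes. The list summed to 22030 to 36060 CPM in WT and 40020 to 51770 CPM in Nlrp3-/- G-MDSCs. Il1b gave the largest part of that sum, with means of 12750 CPM in WT and 21910 CPM in Nlrp3-/- mice. The proliferation genes Mki67 and Top2a were the 2 of 10 called in M-MDSCs (10.6% of all tested genes) and the 2 of 9 in G-MDSCs (16.4%). All were lower in Nlrp3-/- mice, Mki67 by log2 fold changes of −2.08 and −2.74 (edgeR adjusted p of 0.00889 and 0.0023).

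Between Camp and Ltf on chromosome 9, 14 other genes were tested between subsets, of which 8 were higher and 2 lower in WT G-MDSCs (71.4% called, beside 53.3% of all tested genes) and 5 higher and 3 lower in Nlrp3-/- G-MDSCs (57.1%, beside 51.0%). Their median log2 fold change was 0.63 in WT and 0.40 in Nlrp3-/- mice, against values of 2.73 to 4.57 and 3.77 to 5.02 for Camp, Ngp and Ltf. Between genotypes, 2 of the 14 were called in M-MDSCs (14.3%, beside 10.6% of all tested genes) and 5 in G-MDSCs (35.7%, beside 16.4%), and Camp, Ngp and Ltf were called in neither.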

How the data were processed

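RNA from sorted cells, 1 mouse per library, was made into 3′-end libraries (QuantSeq FWD). The authors aligned reads to mm10 with HISAT2 (2.1.0) and counted them per gene by strand with htseq-count, and the deposited files hold these raw counts, which were used as they stand. Their own tests (edgeR 3.14.0) were not used. Libraries were made with 1 of a pair of PCR cycle numbers, not stated per library, and without molecular identifiers in the counts, so limits from counts cover counting error only.

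Here CPM were computed with TMM factors over all 16 libraries (R 4.3.3, edgeR 4.0.16). Each comparison of 2 groups was fitted on its 8 libraries by quasi-likelihood in edgeR, on genes kept by filterByExpr, and the interaction of genotype and subset on all 16, with Benjamini-Hochberg adjustment over all tested genes. A call needed an adjusted p under 0.05 and, outside the interaction, a fold change above 1.5. Intervals are at 95%, and correlations used log2 CPM with a prior count of 2. DESeq2 (1.42.0), other scalings and filters, a GC and length correction, replicate blocks and leaving out each library were the alternatives. The scripts were tested on simulated data.

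No libraries were duplicates (24 pairs within groups, chi-square per degree of freedom of 6.76 to 50.6). Same-numbered libraries of a genotype come from 1 mouse, and their deviations correlated at a mean r of 0.274 in WT and 0.193 in Nlrp3-/- mice. Numbers do not mark shared mice across genotypes. Of 24421 symbols, 23376 matched the GENCODE annotation of mm10 by symbol and 670 by an older symbol. The 10 genes and all lists were chosen with earlier results of these data known. The 10 genes are always named. Of each further list and comparison, up to 3 called genes with the smallest p could be named, and in each subset the 5 genes most like Ltf and the 5 most like Mmp9. One of these is not reported here.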

Additional observations from a re-analysis of the deposited data

Results flagged for a closer look

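In 9 of 40 sets of 4 replicate values, 1 value lay farther from the others than Dixon's test allows at 95%. Chance alone marks about 1 in 20 sets where values are normally distributed, which was not tested for these CPM. In WT M-MDSC replicate 2 this held for Ltf (197 CPM, others 21.9 to 41.6), Camp (884 CPM, others 86.1 to 142), Ngp (1055 CPM, others 155 to 207) and Lcn2 (227 CPM, others 36.6 to 43.6). These 4 values come from 1 library and are not independent of each other. Mmp9 in WT M-MDSC replicate 4 had 11.6 CPM against 2.14 to 3.53. Cd177 in Nlrp3-/- G-MDSC replicate 2 had 107 CPM, below the 135 to 139 of the others. Lyz2 in Nlrp3-/- G-MDSC replicate 1 had 1140 CPM against 360.2 to 453. Olfm4 was marked at 0.14 CPM in WT M-MDSC replicate 2 and at 0.128 CPM in Nlrp3-/- M-MDSC replicate 4, each of which is 1 count where the other libraries of the group had 0. A set of that form is always marked.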

How the results depend on the processing

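The subset differences were the most stable, with 9 of 9 genes called in Nlrp3-/- mice and 8 to 9 in WT when 1 library was left out. Between genotypes in M-MDSCs the number of called granule genes, 2 with all libraries, was 0 with the replicate block, 1 with the correction for GC content and length, 0 with both, and 0 to 2 with 1 library left out. The number over all genes was 425, 668 and 48 under those settings and 450 to 1783 with 1 library left out. In G-MDSCs it was 985, 965 and 396, and 0 to 1 granule genes were called with 1 library left out. The interaction called 5 genes without a filter, 8 by DESeq2 and 2 to 5 with 1 library left out. With the replicate block Mmp9 stood at 2.38 (edgeR adjusted p = 0.0557) and Cd177 at 0.77 (edgeR adjusted p = 0.0765) in M-MDSCs, and since the numbers do not pair mice across genotypes (mean r of −0.172 and −0.185) a lost call there is no sign of a weaker effect. The sign turned in 30 cases, 20 of them by leaving out a library, and in 0 for a called gene. Mmp8 in M-MDSCs went from −0.01 to 0.0969 with library size only, 0.0149 without a filter, 0.169 with GC content and length and 0.145 with the block added. In G-MDSCs Camp turned to 0.0595 under plain library size scaling and to 0.0216 when all libraries were fitted together, Lcn2 to −0.177 with GC content and length and −0.179 with the block added, and Cd177 to −0.0545 with GC content and length. The interaction of Ngp turned to −0.085 with both. With 1 library left out, log2 fold changes in M-MDSCs ran from −1.07 to 0.425 (Ltf), −1.46 to 0.276 (Camp), −1.04 to 0.379 (Ngp), −1.05 to 0.348 (Lcn2) and −0.188 to 0.11 (Mmp8). In G-MDSCs they ran from −0.48 to 0.0504 (Ltf), −0.385 to 0.208 (Camp), −0.661 to 0.0984 (Chil3) and −0.166 to 0.642 (Lyz2). For the interaction they ran from −0.788 to 0.916 (Ltf), −0.391 to 1.48 (Camp), −0.808 to 0.787 (Ngp), −0.246 to 1.32 (Lcn2), −0.39 to 0.0128 (Mmp8), −2.45 to −1.44 (Mmp9) and −0.818 to 0.206 (Lyz2). The cause was not tested. The correlations without WT M-MDSC replicate 2 were added after seeing the data. Depth limits Olfm4 in all groups and Mmp9 in WT M-MDSCs (12 to 34 counts).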
